A study of Mus musculus with 24 samples.

Results

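Fibroblast growth factors (FGFs) and their receptors were followed across 24 RNA sequencing libraries that form 8 groups of 3. The 10 genes described were picked by name from the 37041 genes of the deposited tables: the ligands Fgf1, Fgf2, Fgf7, Fgf10 and Fgf21, the receptors Fgfr1, Fgfr2, Fgfr3 and Fgfr4, and the co-receptor gene Klb. The C2C12 line of mouse myoblasts, muscle precursors that fuse into fibres when differentiated, was labelled as NFIA-expressing or as control (ctrl). Each kind of cell was sampled on day 0, on day 7 untreated, and on day 7 following 4 h of 10 µM forskolin, which activates adenylyl cyclase and so raises cAMP. The promoter that drives NFIA, the number of clones and the culture medium are not given in the labels. Brown adipose tissue (BAT) of mouse neonates was labelled NFIA-KO or wild-type, with no allele or age given beyond that. NFIA belongs to the nuclear factor I transcription factors, and the series title ties it to PPARgamma and to brown fat genes. The comparisons here ask which FGF genes differ with NFIA in myoblasts and between the 2 labelled genotypes of brown fat. Nothing in the labels says that replicates came from separate cultures or animals, so a p-value measures the spread between libraries, which may be technical.

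FGFs are secreted signals that dimerise receptor tyrosine kinases at the cell surface and act mostly through the RAS and MAP kinase cascade. Paracrine members such as FGF1, FGF2, FGF7 and FGF10 bind heparan sulfate and stay near the cell that made them. FGF21 binds heparan sulfate weakly, circulates as a hormone, and needs beta-Klotho, the product of Klb, beside an FGF receptor, chiefly FGFR1 in fat. FGF7 and FGF10 act through the IIIb splice form of FGFR2. In brown fat FGF21 is known as a cold-induced factor that acts on adipocytes, and in muscle it is known as a stress-induced secreted factor.

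Levels are given as FPKM, in which fragments are divided by the length of the transcript and by the mapped total of the library, so that levels of different genes can be set side by side. FPKM summed to between 762822 and 1575522 per library, and between 17304 and 21410 genes were above 0. Read totals are not part of the tables, so the depth behind a value is unknown and no counting error can be given. The added gene checks the labels of the C2C12 cells. Nfia was at 1252 to 1283 FPKM in NFIA cells at day 0, against 0.26 to 1.17 FPKM in control cells, and at 3189 to 3585 FPKM in NFIA cells at day 7, against 0.81 to 2.23 FPKM in control cells. Under forskolin it was at 9232 to 10448 FPKM in NFIA cells, against 1.32 to 1.82 FPKM in control cells. Levels in tissue do not follow its label: Nfia was at 44.58, 40.13 and 39.43 FPKM in the libraries labelled NFIA-KO, against 24.34, 32.82 and 32.58 FPKM in the wild-type libraries, and these ranges do not overlap. With limma, in the tissue fit described below, this difference was not called (log2 fold change 0.47 ± 0.15, adjusted p = 0.0973). FPKM per gene does not show which exons were read, so a deletion of part of the gene would not be seen here.

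Promoters of the members are shown because NFIA is a DNA-binding factor and cAMP acts on transcription through CREB-type factors. The 250 bases before the RefSeq start site (build GRCm38.p6) were read for 8 of the 10 members, with 2 windows for Fgfr3; Fgf1 and Fgfr1 are not shown. Capitals mark matches, on either strand, to TGACGTCA (the cAMP response element), TGACG (the core of that element, which lies within it), TTGCATCA (an ATF4-type element) and TTGGC (the core of an NFI site). Of 32851 mouse windows of this length, 1.55% held TGACGTCA, 17.8% TGACG, 0.791% TTGCATCA and 41.5% TTGGC. Fgf21, Fgf7 and Fgf10 are the ligands called higher under forskolin in NFIA cells, and Fgfr2 and Klb are the receptor genes that stood furthest above control in NFIA cells at day 7.
Fgf21, chr7:45615491-45615740, minus strand: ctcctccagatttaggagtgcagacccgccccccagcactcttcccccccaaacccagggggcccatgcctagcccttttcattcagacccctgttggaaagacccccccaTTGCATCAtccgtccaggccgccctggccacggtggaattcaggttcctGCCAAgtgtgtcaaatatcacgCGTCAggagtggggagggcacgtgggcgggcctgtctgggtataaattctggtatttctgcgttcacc
Fgf7, chr2:126034408-126034657, plus strand: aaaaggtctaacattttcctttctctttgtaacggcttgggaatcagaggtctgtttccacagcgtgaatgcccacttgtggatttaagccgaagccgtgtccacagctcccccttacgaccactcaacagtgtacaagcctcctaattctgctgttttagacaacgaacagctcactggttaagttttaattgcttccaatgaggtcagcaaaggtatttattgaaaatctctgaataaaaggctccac
Fgf10, chr13:118714449-118714698, plus strand: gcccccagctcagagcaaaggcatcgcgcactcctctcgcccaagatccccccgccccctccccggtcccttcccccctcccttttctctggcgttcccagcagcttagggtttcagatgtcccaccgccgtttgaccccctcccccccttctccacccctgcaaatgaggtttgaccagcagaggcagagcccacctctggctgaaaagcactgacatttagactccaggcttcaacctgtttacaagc
Fgfr2, chr7:130266809-130267058, minus strand: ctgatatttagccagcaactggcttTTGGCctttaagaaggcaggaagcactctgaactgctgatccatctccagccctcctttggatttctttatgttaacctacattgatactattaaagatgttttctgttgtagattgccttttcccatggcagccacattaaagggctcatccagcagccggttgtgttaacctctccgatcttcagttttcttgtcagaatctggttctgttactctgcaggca
Klb, chr5:65348161-65348410, plus strand: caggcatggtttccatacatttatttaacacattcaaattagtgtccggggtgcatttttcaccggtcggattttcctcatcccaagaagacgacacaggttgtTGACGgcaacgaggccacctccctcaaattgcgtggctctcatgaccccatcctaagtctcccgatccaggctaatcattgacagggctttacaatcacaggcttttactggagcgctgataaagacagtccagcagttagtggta
The Fgf21 window held TTGCATCA 139 bases before the start, TTGGC (reverse complement) at 90 and TGACG (reverse complement) at 68, with no overlap between them. The Fgfr2 window held TTGGC at 225 bases before the start, and the Klb window TGACG at 146. The Fgf7 and Fgf10 windows held none of the 4 motifs, which says only that these letters are not in these windows. Of the windows not printed, Fgf2 held TGACG at 140 and 6 bases before the start, Fgfr4 held TTGGC at 247, and both Fgfr3 windows held none.

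At day 0, 4 ligands and 2 receptors were higher in NFIA cells than in control cells. On the log2(FPKM + 1) scale the difference was largest for Fgf2, a broadly acting mitogen, and for Fgf7, a ligand of epithelial FGFR2. Adding 1 shrinks ratios at low levels, such as that of Fgf21, so this order depends on the scale. Tests were made on log2(FPKM + 1) with limma over all 14351 genes that reached 1 FPKM in at least 3 C2C12 libraries, fold changes are on that scale with their standard error, and adjusted p means Benjamini-Hochberg over those genes. Of the 8 members tested 6 were higher and 0 lower, beside 12.1% of all tested genes higher and 9.07% lower. The median log2 fold change was 0.87 over the 8 members and 0.02 over all tested genes. Markers of other cell types differed as well: 5 of 6 adipocyte progenitor and fibroblast markers tested were higher in NFIA cells (summed FPKM of the list 781.62 to 845.32, against 263.67 to 318.53 in control cells), 5 of 8 skeletal muscle markers were lower (3.09 to 4.26, against 20.98 to 25.73) and 3 of 4 smooth muscle markers were lower (445.42 to 467.87, against 642.99 to 774.6). Their part in the FGF differences was not tested, and in bulk RNA fewer cells of a type cannot be told apart from less RNA per cell.

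Fgf2 was at 27.54, 21.3 and 24.05 FPKM in NFIA cells, against 2.4, 4.47 and 4.57 FPKM in control cells at day 0. Fgf7 was at 72.06, 62.38 and 60.35 FPKM in NFIA cells, against 15.55, 15.98 and 16.03 FPKM in control cells. Neither gene's groups overlapped, and the log2 fold changes were 2.42 ± 0.24 for Fgf2 (adjusted p = 2.03e-06) and 1.96 ± 0.12 for Fgf7 (adjusted p = 8.54e-09). Fgf10, a ligand that shares its receptor form with Fgf7, was at 4.55, 3.84 and 4.36 FPKM in NFIA cells, against 1.73, 1.33 and 1.28 FPKM in control cells (1.10 ± 0.10, adjusted p = 6.22e-07). Fgf21 was low in both but did not overlap, at 1.59, 2.13 and 2.35 FPKM in NFIA cells, against 0.2, 0.25 and 0.17 FPKM in control cells (1.32 ± 0.23, adjusted p = 0.000532). Fgf1, which binds all FGF receptors, stayed under the expression filter: it was at 0.51, 0.31 and 0.15 FPKM in NFIA cells, against 0.19, 0.18 and 0.26 FPKM in control cells, and these ranges overlap.

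Fgfr1 was the main receptor in both kinds of myoblast, at 75.27, 72.53 and 76.24 FPKM in NFIA cells and 46.06, 56.74 and 50.72 FPKM in control cells at day 0. Its groups did not overlap, and the log2 fold change was 0.54 ± 0.10 (adjusted p = 0.000606). Fgfr3 was at 0.75, 1.32 and 0.89 FPKM in NFIA cells, against 0.37, 0.22 and 0.22 FPKM in control cells (0.64 ± 0.13, adjusted p = 0.00234). Fgfr2 was at 5.34, 3.15 and 2.46 FPKM in NFIA cells, against 2.1, 2.46 and 1.84 FPKM in control cells, which overlap. Its difference of 0.53 ± 0.20 had an adjusted p of 0.0828, and of 0.042 with a replicate block, a fit with the replicate number as a term. Fgfr4, at 0.95, 1.16 and 1.09 FPKM in NFIA cells and 1.42, 2.02 and 2.8 FPKM in control cells, was not called (-0.55 ± 0.88, adjusted p = 0.736), although its groups did not overlap. Without control day 7 replicate 3, which weighs on the spread of the shared fit as described with day 7, it was at -0.55 ± 0.22 (adjusted p = 0.11). Klb was at 0.03, 0.03 and 0 FPKM in NFIA cells, against 0.03, 0 and 0.04 FPKM in control cells, so both were at or near 0.

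**Figure D1:**
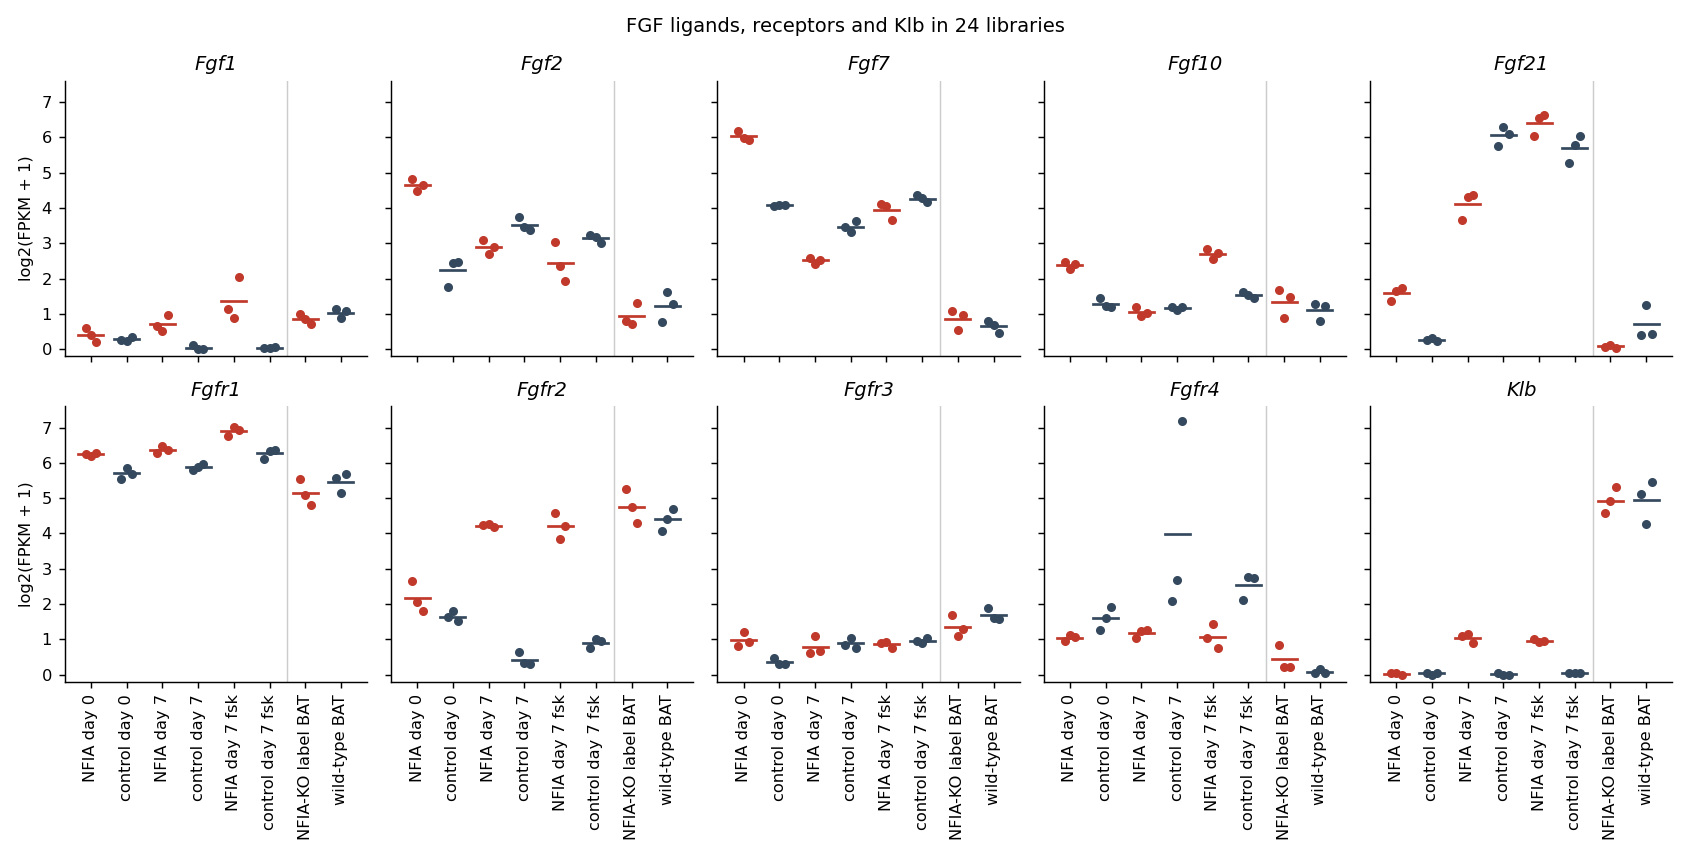
Level of each of the 10 genes as log2(FPKM + 1) in every library (points) with the group mean (bar), for 8 groups of 3 libraries; red marks NFIA cells and the tissue labelled NFIA-KO, dark grey-blue marks control cells and wild-type tissue, and fsk is forskolin. Fgfr2 separates NFIA from control cells at day 7, Klb is high only in the tissue groups shown, and 1 control library at day 7 holds an Fgfr4 value of 143.97 FPKM.

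At day 7 the ligands Fgf21, Fgf7 and Fgf2 were lower in NFIA cells than in control cells, while the receptors Fgfr2 and Fgfr1 were higher and Fgfr4 lower. Fgf10 was not called. Of the 8 members tested 2 were higher and 4 lower, beside 26.1% of all tested genes higher and 29.4% lower. The share called higher is near the background. The share called lower stands above it, but rests on 8 genes, and the Fgf2 call among them was lost under other settings. In these cultures 7 of 8 brown adipocyte markers were higher and 8 of 8 skeletal muscle markers lower in NFIA cells. Of the 8 brown adipocyte markers, 6 exceeded 0.05 FPKM in any control library at day 7. A marker that passed the filter only through NFIA cells could only be higher there, so this count is a description. The summed FPKM of the brown adipocyte list was 22280 to 24401 in NFIA cells, against 59.45 to 118.61 in control cells. Most of that sum is Fabp4, a gene of all adipocytes, and the other 7 genes summed to 854.87 to 1243 in NFIA cells, against 52.91 to 113.82 in control cells. The sum of the muscle list was 1013 to 1298 in NFIA cells, against 5862 to 6237 in control cells. Ucp1, the defining uncoupling protein of brown fat, reached at most 0.13 FPKM in NFIA cells, against a listed 0 in each control library at day 7. The part of these markers in the FGF differences was not tested.

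Fgf21 was at 11.57, 18.86 and 19.86 FPKM in NFIA cells, against 53.31, 78.25 and 67.82 FPKM in control cells at day 7. The groups were far apart, with a log2 fold change of -1.94 ± 0.23 (adjusted p = 2.95e-06). Fgf7 was at 5.03, 4.34 and 4.79 FPKM in NFIA cells, against 9.97, 8.98 and 11.48 FPKM in control cells (-0.96 ± 0.12, adjusted p = 4.96e-06). Fgf2 was at 7.61, 5.53 and 6.39 FPKM in NFIA cells, against 12.3, 9.93 and 9.45 FPKM in control cells. The Fgf2 groups did not overlap, but the call (-0.62 ± 0.24, adjusted p = 0.0381) was lost under 4 other settings and without any of 4 single libraries, as set out in the closing section. Fgf10 did not differ detectably, at 1.27, 0.91 and 1.03 FPKM in NFIA cells and 1.28, 1.14 and 1.28 FPKM in control cells (-0.11 ± 0.10, adjusted p = 0.351). Fgf1 was at 0.56, 0.43 and 0.95 FPKM in NFIA cells, against 0.09 FPKM in control replicate 1 and a listed 0 in replicates 2 and 3. With no expression filter it was 0.67 ± 0.22 higher in NFIA cells on the log2(FPKM + 1) scale (adjusted p = 0.0259).

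Fgfr2 was at 17.85, 18.11 and 17.06 FPKM in NFIA cells, against 0.55, 0.26 and 0.23 FPKM in control cells at day 7. Every NFIA library stood well above every control library, and the log2 fold change was 3.80 ± 0.20 (adjusted p = 3.41e-10). Fgfr1 was at 76.55, 88.06 and 80.92 FPKM in NFIA cells, against 54.94, 57.75 and 61.42 FPKM in control cells (0.49 ± 0.10, adjusted p = 0.000441). Klb was at 1.13, 1.2 and 0.87 FPKM in NFIA cells, against 0.02, 0 and 0 FPKM in control cells. Klb missed the expression filter by 1 library. With no expression filter its difference was 1.03 ± 0.04 on the log2(FPKM + 1) scale (adjusted p = 1.3e-10). That standard error rests on the spread of all 18 C2C12 libraries, in most of which Klb was at or near 0. The error and p may thus be too small for Klb, here and in the other C2C12 comparisons. Fgfr3 ranges overlapped, at 0.52, 1.15 and 0.59 FPKM in NFIA cells and 0.8, 1.05 and 0.69 FPKM in control cells (adjusted p = 0.601).

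Fgfr4, a receptor of myogenic and liver cells, was at 1.05, 1.33 and 1.39 FPKM in NFIA cells, against 3.25, 5.38 and 143.97 FPKM in control cells at day 7. The library that reads 143.97 FPKM, control day 7 replicate 3, stands apart from all others for this gene, and Fgfr4 is given with and without it. The log2 fold change was -2.81 ± 0.88 (adjusted p = 0.0132) with it and -1.21 ± 0.25 (adjusted p = 0.00099) without it. It was not called when only the libraries of these 2 groups entered the fit (adjusted p = 0.095).

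With forskolin at day 7, NFIA cells had more Fgf21 and Fgf10 than control cells, the reverse of untreated cells for Fgf21. Of the 8 members 4 were higher and 2 lower, beside 28.7% of all tested genes higher and 32.9% lower. The summed brown adipocyte list was at 20012 to 23332 FPKM in NFIA cells, against 77.29 to 130.22 FPKM in control cells (721.23 to 992.54 FPKM, against 75.16 to 125.78 FPKM, without Fabp4), and the muscle list at 1078 to 1495 FPKM in NFIA cells, against 5341 to 6620 FPKM in control cells. Fgf21 was at 65.05, 92.97 and 98.74 FPKM in NFIA cells, against 37.54, 54.36 and 64.31 FPKM in control cells, which leaves under 1 FPKM between the groups. The log2 fold change of Fgf21 was 0.72 ± 0.23 (adjusted p = 0.013), and the call was lost without control replicate 1 (0.50, adjusted p = 0.074) or without NFIA replicate 3 (0.60, adjusted p = 0.057). Fgf10 was at 6.08, 4.88 and 5.65 FPKM in NFIA cells, against 2.09, 1.89 and 1.71 FPKM in control cells (1.17 ± 0.10, adjusted p = 5.43e-08). Fgf1 was at 1.21, 0.85 and 3.15 FPKM in NFIA cells, against 0.03, 0.02 and 0.04 FPKM in control cells, with no overlap and below the filter. With no expression filter the Fgf1 difference was 1.32 ± 0.22 on the log2(FPKM + 1) scale (adjusted p = 0.00017).

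Fgf7 was at 16.44, 15.78 and 11.63 FPKM in NFIA cells, against 19.61, 18.29 and 16.85 FPKM in control cells under forskolin (-0.31 ± 0.12, adjusted p = 0.0314). Fgf2 was at 7.16, 4.13 and 2.83 FPKM in NFIA cells, against 8.48, 8.12 and 7.12 FPKM in control cells (-0.71 ± 0.24, adjusted p = 0.0179). Fgf2 ranges overlapped, and both calls were lost under other settings (adjusted p = 0.1 for Fgf7 and 0.059 for Fgf2 with only the groups compared). Fgfr2 was at 22.97, 13.33 and 17.66 FPKM in NFIA cells, against 0.69, 0.99 and 0.95 FPKM in control cells (3.31 ± 0.20, adjusted p = 1.49e-09). Fgfr1 was at 107.68, 128.71 and 121.69 FPKM in NFIA cells, against 68.73, 79.68 and 81.4 FPKM in control cells (0.63 ± 0.10, adjusted p = 3.35e-05). Both receptors were thus higher in NFIA cells with no overlap. Klb was at 0.99, 0.9 and 0.94 FPKM in NFIA cells, against 0.02, 0.02 and 0.04 FPKM in control cells. With no expression filter the Klb difference was 0.92 ± 0.04 on the log2(FPKM + 1) scale (adjusted p = 4.2e-10). Fgfr3 was at 0.85, 0.91 and 0.7 FPKM in NFIA cells and 0.92, 0.87 and 1.03 FPKM in control cells (adjusted p = 0.568). Fgfr4 was at 1.03, 1.7 and 0.69 FPKM in NFIA cells, against 3.29, 5.81 and 5.7 FPKM in control cells. Its groups did not overlap, and it was not called with all libraries (-1.47 ± 0.88, adjusted p = 0.164) but was called once the high control day 7 library was left out of the shared fit (-1.47 ± 0.22, adjusted p = 5.6e-05), which makes 7 members called.

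**Figure D2:**
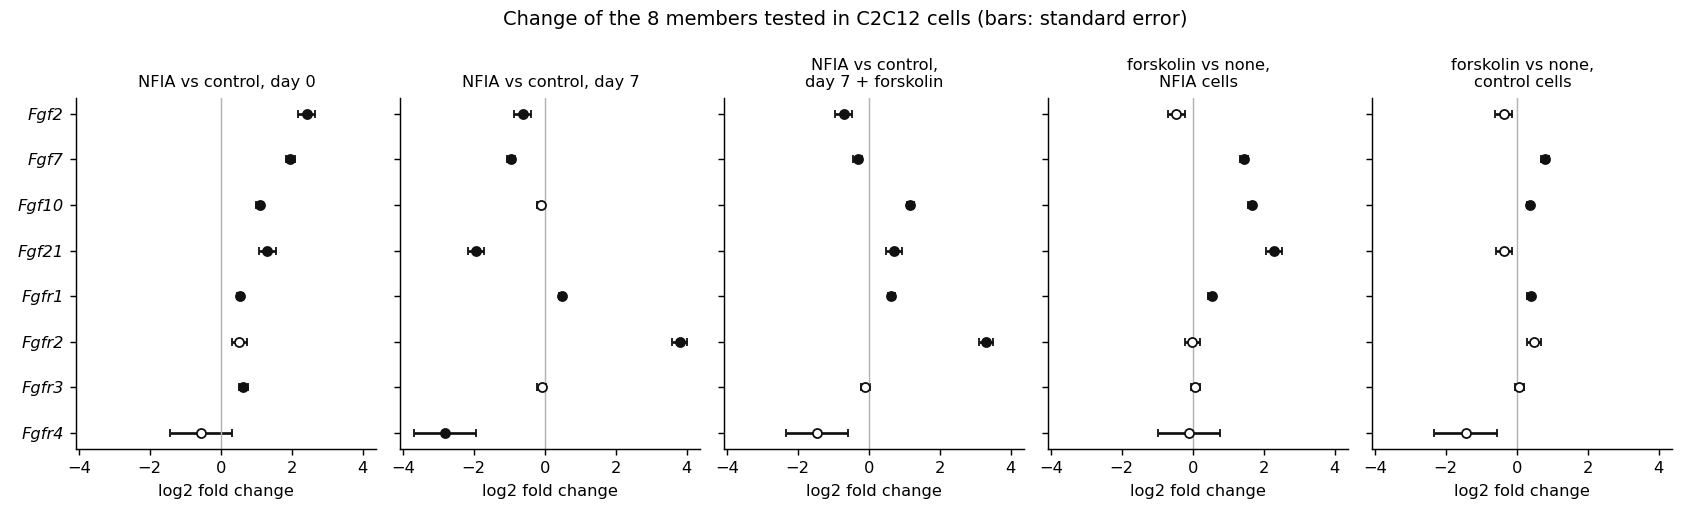
Log2 fold change on the log2(FPKM + 1) scale (points, with standard error as bars) of the 8 members tested in C2C12 cells, in 5 comparisons of 3 against 3 libraries; filled points were called at an adjusted p under 0.05. Fgf21 is at 1.32 at day 0, -1.94 at day 7 and 0.72 with forskolin for NFIA against control cells.

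The response to forskolin itself was compared within each kind of cell. In NFIA cells Fgf21, Fgf10, Fgf7 and Fgfr1 rose, 4 of the 8 members with 0 lower, beside 15.7% of all tested genes higher and 16.9% lower. Fgf21 rose by a log2 fold change of 2.30 ± 0.23 (adjusted p = 2.09e-06), Fgf10 by 1.66 ± 0.10 (adjusted p = 7.04e-09), Fgf7 by 1.44 ± 0.12 (adjusted p = 2.86e-07) and Fgfr1 by 0.54 ± 0.10 (adjusted p = 0.000507). In all 4 genes every forskolin library was above every untreated NFIA library. Fgfr2 showed no shift of its mean (-0.01 ± 0.20, adjusted p = 0.986). Fgf2 was not called (-0.46 ± 0.24, adjusted p = 0.166), though it was without forskolin replicate 1 (-0.75, adjusted p = 0.015). Fgf1 stood 0.66 ± 0.22 higher with no expression filter (adjusted p = 0.0495), with ranges of 0.85 to 3.15 FPKM in forskolin libraries and 0.43 to 0.95 FPKM in untreated ones that overlap. Nfia transcripts also rose with forskolin in NFIA cells (1.56 ± 0.20, adjusted p = 2.76e-05), and the part of this rise in the FGF response was not tested.

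In control cells 3 members rose with forskolin and 0 fell, beside 1.92% of all tested genes higher and 2.06% lower. Fgf7 rose by 0.79 ± 0.12 (adjusted p = 0.000897). Fgfr1 (0.39 ± 0.10, adjusted p = 0.0306) and Fgf10 (0.37 ± 0.10, adjusted p = 0.0468) were called by a small margin. Fgfr1 was not called without any 1 of the untreated control day 7 libraries. Fgf10 was not called without any 1 of the 6 libraries, treated or untreated (adjusted p of 0.061 to 0.18). With only these 2 groups in the fit Fgf7 was the 1 member left (adjusted p = 0.15 for Fgfr1 and 0.12 for Fgf10). Fgf21 was not called in control cells (-0.36 ± 0.23, adjusted p = 0.655), where its forskolin and untreated ranges overlap, nor was Fgf2 (-0.37 ± 0.24, adjusted p = 0.668). Fgfr2 stood 0.48 ± 0.20 higher (adjusted p = 0.311) with no overlap, and passed the threshold with a pseudocount of 0.1 (1.18, adjusted p = 0.037). Fgfr4 was at -1.44 ± 0.88 (adjusted p = 0.631) and at 0.16 ± 0.25 (adjusted p = 1) without the library that stands apart.

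The difference between these 2 responses was tested as an interaction. Fgf21 (2.66 ± 0.32, adjusted p = 3.32e-05), Fgf10 (1.28 ± 0.14, adjusted p = 1e-05) and Fgf7 (0.64 ± 0.17, adjusted p = 0.0128) responded more in NFIA cells, 3 of 8 higher and 0 lower, beside 10.5% of all tested genes higher and 9.61% lower. The Fgf7 term missed the threshold after quantile normalization (0.57, adjusted p = 0.051). Fgfr1 rose in both kinds of cell, and its interaction was not called (0.14 ± 0.14, adjusted p = 0.537). For Fgfr4 it was 1.34 ± 1.24 (adjusted p = 0.535), and -0.26 ± 0.34 (adjusted p = 0.71) without control day 7 replicate 3, so its sign rests on that library.

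**Figure D3:**
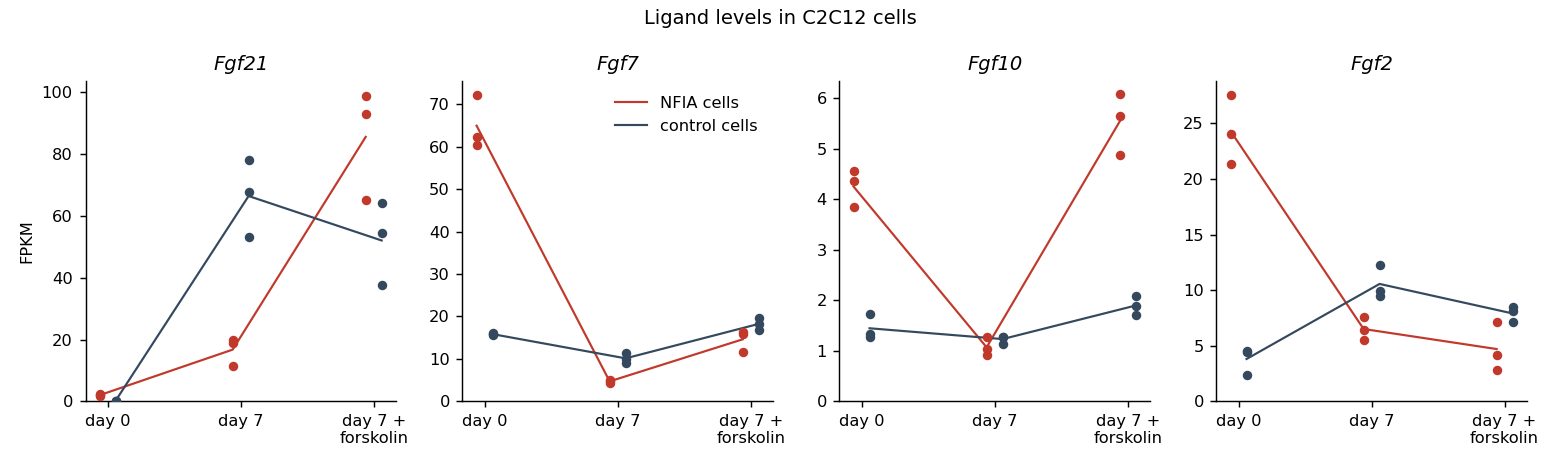
FPKM of 4 ligands in C2C12 cells over both days and under forskolin on day 7; points are libraries, 3 per group, and lines join group means (red NFIA cells, dark grey-blue control cells). Fgf10 is at 4.88 to 6.08 FPKM in NFIA cells with forskolin, above the 1.71 to 2.09 FPKM of control cells.

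From day 0 to day 7 the 2 kinds of cell moved differently. In control cells all 8 skeletal muscle markers rose, and of the 8 members 4 rose and 2 fell, beside 24.9% of all tested genes higher and 23.9% lower. Fgf21 rose by 5.79 ± 0.23 (adjusted p = 2.48e-11) and Fgf2 by 1.29 ± 0.24 (adjusted p = 0.000389). Fgfr2 fell (-1.22 ± 0.20, adjusted p = 0.000147), as did Fgf7 (-0.60 ± 0.12, adjusted p = 0.000629). Fgfr3 rose by 0.54 ± 0.13 (adjusted p = 0.0035), but stood at 0.05 (adjusted p = 0.77) after quantile normalization, which moved the median of all tested genes by -0.11 in this comparison. Fgfr4 rose by 2.38 ± 0.88 (adjusted p = 0.036), and by 0.78 ± 0.25 (adjusted p = 0.022) without the library that stands apart. That call was lost with no expression filter (adjusted p = 0.061), with only the groups compared (adjusted p = 0.18) and without any 1 of the control day 0 libraries (adjusted p of 0.053 to 0.09). Fgfr1 (0.18 ± 0.10, adjusted p = 0.13) passed the threshold with a replicate block (adjusted p = 0.024).

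In NFIA cells 2 members rose and 3 fell from day 0 to day 7, beside 27.5% of all tested genes higher and 29.4% lower. Fgf21 rose by 2.53 ± 0.23 (adjusted p = 1.64e-07) and Fgfr2 by 2.05 ± 0.20 (adjusted p = 4.46e-07). Fgf7 fell by a log2 fold change of -3.52 ± 0.12 (adjusted p = 1.79e-12), Fgf2 by -1.75 ± 0.24 (adjusted p = 1.48e-05) and Fgf10 by -1.34 ± 0.10 (adjusted p = 1.41e-08). Klb stood 1.01 ± 0.04 higher at day 7 with no expression filter (adjusted p = 1.8e-10). In NFIA cells 7 of 8 brown adipocyte and 8 of 8 muscle markers rose in the same time. At day 0, 5 of the 8 brown adipocyte and 6 of the 8 muscle markers exceeded 0.05 FPKM in any NFIA library. Markers that passed the filter only through day 7 could only rise. The marker counts from day 0 to day 7 in both kinds of cell are thus a description.

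The effect of NFIA thus depended on the day by the interaction test for 6 members, 1 higher (Fgfr2, 3.28 ± 0.29, adjusted p = 2e-07) and 5 lower, beside 19.8% of all tested genes higher and 25.5% lower. The 5 were Fgf21 (-3.26 ± 0.32), Fgf2 (-3.04 ± 0.34), Fgf7 (-2.92 ± 0.17), Fgf10 (-1.22 ± 0.14) and Fgfr3 (-0.72 ± 0.19), with adjusted p between 1.69e-09 and 0.00508. Fgfr3 is near 1 FPKM or below in all C2C12 groups, and its term missed the threshold after quantile normalization (-0.38, adjusted p = 0.1). Across the 9 C2C12 comparisons, members were called 45 times, and in 45 of these the difference had the same sign among libraries with the earlier date in the column headers, 1 per group, as among those with the later date, 2 per group. What these dates record is not stated. The calls were made on these same libraries, and the comparisons share groups. Agreement in sign, and calls kept at the later date, were therefore in part fixed in advance and are no replication. Among libraries of the later date alone 43 of the 45 were still called; the exceptions were Fgf7 under forskolin in NFIA against control cells (adjusted p = 0.051) and Fgf10 with forskolin in control cells (adjusted p = 0.088). Those libraries alone also gave 4 further calls, Fgfr2 in the interaction with forskolin (-0.85, adjusted p = 0.015), Fgf2 with forskolin in NFIA cells (-0.65, adjusted p = 0.0048), Fgfr2 with forskolin in control cells (0.66, adjusted p = 0.038) and Fgfr1 from day 0 to 7 in NFIA cells (0.18, adjusted p = 0.046).

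In brown fat no member differed detectably between the libraries labelled NFIA-KO and wild-type. None of the 6 members tested was called, beside 3.59% of the 13618 tested genes higher and 3.55% lower. With limma 0 of the 6 had an unadjusted p under 0.05, beside 3936 of the 13618 tested genes. Klb was at 22.69, 29.11 and 38.71 FPKM in tissue labelled NFIA-KO, against 33.72, 18.42 and 42.66 FPKM in wild-type tissue (-0.02 ± 0.32, adjusted p = 0.975). Fgfr1 was at 45.25, 33.33 and 27.01 FPKM in tissue labelled NFIA-KO, against 46.44, 34.68 and 50.48 FPKM in wild-type tissue (-0.32 ± 0.22, adjusted p = 0.379). Fgfr2 was at 36.97, 25.71 and 18.53 FPKM in tissue labelled NFIA-KO, against 15.73, 20.44 and 25.09 FPKM in wild-type tissue (0.36 ± 0.27, adjusted p = 0.42). The groups overlap in all 3 genes. Fgfr3 was at 2.19, 1.15 and 1.43 FPKM in tissue labelled NFIA-KO, against 2.71, 2.03 and 1.99 FPKM in wild-type tissue (-0.34 ± 0.19, adjusted p = 0.29).

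The ligands were low in tissue, at 2.18 FPKM or less in every library. Fgf2 was at 0.74, 0.64 and 1.48 FPKM in tissue labelled NFIA-KO, against 0.71, 2.06 and 1.44 FPKM in wild-type tissue (adjusted p = 0.514). Fgf10 was at 2.18, 0.85 and 1.76 FPKM in tissue labelled NFIA-KO, against 1.41, 0.74 and 1.33 FPKM in wild-type tissue (adjusted p = 0.545). Both overlap. Fgf1, Fgf7, Fgf21 and Fgfr4 were under the filter. Fgf1 was at 0.98, 0.79 and 0.64 FPKM in tissue labelled NFIA-KO, against 1.18, 0.85 and 1.1 FPKM in wild-type tissue. Fgf7 was at 1.12, 0.45 and 0.94 FPKM in tissue labelled NFIA-KO, against 0.73, 0.61 and 0.37 FPKM in wild-type tissue. Fgf21 was at 0.04, 0.09 and 0.03 FPKM in tissue labelled NFIA-KO, against 0.33, 1.38 and 0.35 FPKM in wild-type tissue, and Fgfr4 at 0.8, 0.17 and 0.17 FPKM in tissue labelled NFIA-KO, against 0.03, 0.12 and 0.03 FPKM in wild-type tissue. These last 2 genes do not overlap, and neither was called with no expression filter (adjusted p = 0.21 for Fgf21 and 0.33 for Fgfr4).

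Other markers also differed between the tissue groups. The skeletal muscle list summed to 171.59 to 1071 FPKM in tissue labelled NFIA-KO, against 42 to 88.16 FPKM in wild-type tissue. Of its 8 genes 4 were higher, beside 3.59% of all tested genes. Of the 8 brown adipocyte markers 3 were lower, beside 3.55% of all tested genes. Ucp1 was at 1445 to 1674 FPKM in tissue labelled NFIA-KO, against 4073 to 7240 FPKM in wild-type tissue. Fabp4 was listed at 0 in wild-type replicate 3 and at 21230 and 23064 FPKM in the other wild-type libraries, so a 0 in these tables need not mean low expression. The part of these differences in the FGF values was not tested.

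The order of the group means shows where each member was highest. Klb was highest in wild-type tissue (mean 31.6 ± 12.3 FPKM, SD, n = 3) and tissue labelled NFIA-KO (30.2 ± 8.06 FPKM), which overlap, then in NFIA cells at day 7 (1.07 ± 0.17 FPKM) and NFIA cells with forskolin (0.94 ± 0.05 FPKM), which overlap with each other and not with the 4 remaining groups, all at 0.04 FPKM or less. Fgfr2 followed a like order, with both tissues and both kinds of NFIA cell at day 7 overlapping along the order at means of 27.1 to 17.7 FPKM, then NFIA cells at day 0 (3.65 ± 1.5 FPKM) overlapping control cells at day 0 (2.13 ± 0.31 FPKM), then control cells with forskolin (0.88 ± 0.16 FPKM) and without it at day 7 (0.35 ± 0.18 FPKM), which do not overlap. Fgfr1 was highest in NFIA cells with forskolin (119 ± 10.7 FPKM), clear of the next group, and lowest in tissue labelled NFIA-KO (35.2 ± 9.26 FPKM), whose range overlaps that of wild-type tissue (43.9 ± 8.21 FPKM). Fgfr3 was highest in wild-type tissue (2.24 ± 0.4 FPKM), and all neighbours in its order overlap except control cells at day 0, which lie below the rest. Fgfr4 was highest in control cells at day 7, by the 1 library named above, and its next group, control cells with forskolin (4.93 ± 1.42 FPKM), was clear of control cells at day 0 (2.08 ± 0.69 FPKM).

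Among the ligands, Fgf21 was highest in NFIA cells with forskolin (85.6 ± 18 FPKM), control cells at day 7 (66.5 ± 12.5 FPKM) and control cells with forskolin (52.1 ± 13.5 FPKM), with overlap between neighbours, while every later step down its order was clear of overlap. Fgf7 and Fgf2 were highest in NFIA cells at day 0, at 64.9 ± 6.26 FPKM and 24.3 ± 3.13 FPKM, both clear of the next group. Fgf10 was highest in NFIA cells with forskolin (5.54 ± 0.61 FPKM), then in NFIA cells at day 0 (4.25 ± 0.37 FPKM), clear of each other and of the 6 remaining groups, which had means of 1.07 to 1.90 FPKM. Fgf1 was highest in NFIA cells with forskolin (1.74 ± 1.24 FPKM), and the first 6 groups of its order overlap from 1 to the next.

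**Figure D4:**
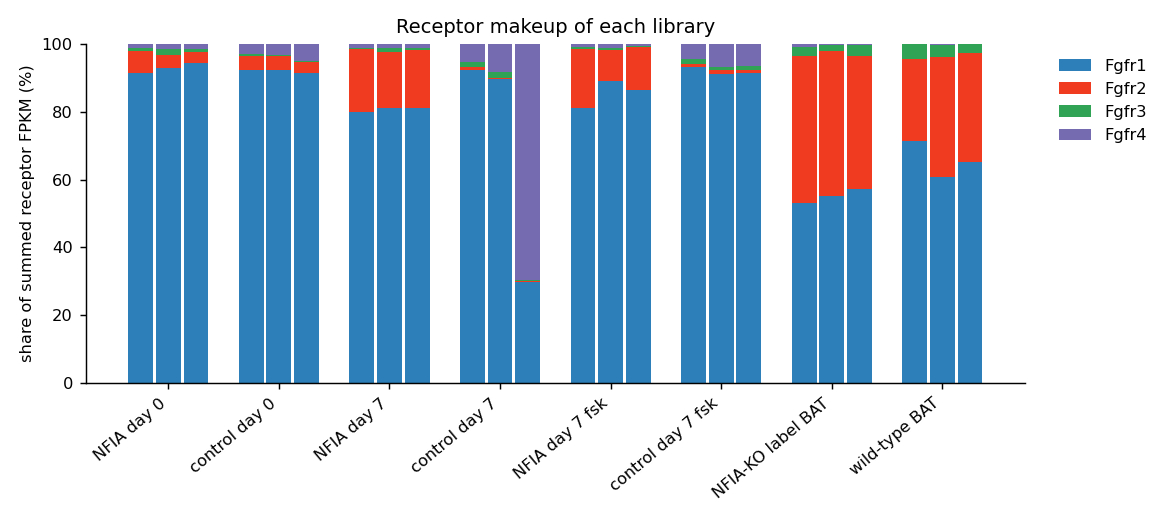
Share of the summed FPKM of Fgfr1 to Fgfr4 that each receptor holds, in percent, with 1 bar per library and 3 bars per group. Fgfr2 holds 16.7 to 18.6% in NFIA cells at day 7, against 0.111 to 0.924% in control cells, and 1 control bar is mostly Fgfr4.

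FPKM allows the receptors to be set side by side within a library. Fgfr1 made up 91.4 to 94.5% of the summed receptor FPKM in NFIA cells at day 0, against 91.3 to 92.4% in control cells. At day 7 Fgfr2 made up 16.7 to 18.6% in NFIA cells, against 0.111 to 0.924% in control cells, and with forskolin 9.22 to 17.3% in NFIA cells, against 0.937 to 1.13% in control cells. In tissue Fgfr2 made up 39.3 to 43.4% in libraries labelled NFIA-KO, against 24.2 to 35.7% in wild-type libraries. The tissue ranges do not overlap. An exact two-sided permutation test, made for this share in tissue only, gave p = 0.1, the smallest that 3 libraries against 3 allow. Ranges that do not overlap fix that value in advance, so the test adds nothing to the ranges. Gene-level FPKM does not separate the IIIb and IIIc splice forms of Fgfr2.

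Lists of other genes of the pathway were tested in the same fits. Among 17 other FGF ligands, Fgf5, Fgf11 and Fgf13 passed the filter in C2C12 cells. Fgf5 and Fgf13 passed it only through control cells at day 7, with or without forskolin, so that they are lower in NFIA cells then follows from the filter, and no count is read from this list. Fgf11, an intracellular FGF homologue, was at 2.29 ± 0.53 FPKM in NFIA cells, against 11.8 ± 1.34 FPKM in control cells (SD, n = 3 each), a log2 fold change of -1.97 ± 0.12 (adjusted p = 1.03e-09). Fgf13, of the same subfamily, was at 0.05 ± 0.06 FPKM in NFIA cells, against 4.53 ± 0.74 FPKM in control cells at day 7, and Fgf5 at 0.03 ± 0.02 FPKM in NFIA cells, against 1.35 ± 0.08 FPKM in control cells. In tissue none of the 17 passed the filter.

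Counts in the other lists are to be read against the shares of all tested genes, which for NFIA against control cells were 12.1% higher and 9.07% lower at day 0 and 26.1% higher and 29.4% lower at day 7. Of 16 co-receptors and binding proteins 10 were tested in C2C12 cells. At day 0, 6 were higher and 3 lower in NFIA cells, with a median of 0.61 against 0.02 over all genes, and at day 7 2 were higher and 8 lower, with a median of -1.49 against -0.03. Fgfrl1, a receptor without a kinase domain, was at 113 ± 11 FPKM in NFIA cells at day 7, against 19.7 ± 0.75 FPKM in control cells (2.45 ± 0.10, adjusted p = 9.57e-12). Sdc4, a heparan sulfate proteoglycan of the cell surface, was at 176 ± 16.6 FPKM in NFIA cells, against 64.7 ± 5.90 FPKM in control cells at day 7 (1.43 ± 0.09, adjusted p = 2.36e-09), and these were the 2 higher genes. Sdc3, a syndecan of muscle and nerve, was at 1.09 ± 0.18 FPKM in NFIA cells, against 31.5 ± 0.86 FPKM in control cells (-3.96 ± 0.10, adjusted p = 7.07e-14). Fgfbp1, a carrier that frees FGFs from the matrix, was at 0.12 ± 0.01 FPKM in NFIA cells, against 9.79 ± 1.81 FPKM in control cells. It passed the filter only through control cells, so that Fgfbp1 is lower in NFIA cells at day 7 follows from the filter. The 8 lower genes and the median at day 7 include it. With forskolin in NFIA cells Sdc4 rose to 515 ± 22.8 FPKM, against 176 ± 16.6 FPKM untreated (1.55 ± 0.09, adjusted p = 5.87e-09), while Fgfrl1 fell to 54.8 ± 4.33 FPKM, against 113 ± 11 FPKM untreated (-1.03 ± 0.10, adjusted p = 1.08e-06). No gene of this list was called with forskolin in control cells by limma, beside 1.92% of all tested genes higher and 2.06% lower. None of 11 was called in tissue, beside 3.59% higher and 3.55% lower.

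Of the 14 heparan sulfate enzymes 12 were tested in C2C12 cells, with 1 higher and 5 lower in NFIA cells at day 0 and 0 higher and 9 lower at day 7. The median at day 7 was -0.55 against -0.03 over all genes. Hs3st3a1 was at 0.12 ± 0.07 FPKM in NFIA cells, against 1.33 ± 0.02 FPKM in control cells at day 7. It passed the filter only through control cells, so that Hs3st3a1 is lower in NFIA cells follows from the filter. Hs3st1 also passed only through control cells, at 1.73 ± 0.37 FPKM with forskolin, against 0.20 ± 0.08 FPKM in NFIA cells. The counts and the median include both genes. Sulf1, which removes 6-O-sulfate from heparan sulfate outside the cell, was at 7.13 ± 0.64 FPKM in NFIA cells, against 33.2 ± 2.17 FPKM in control cells at day 7 (-2.08 ± 0.10, adjusted p = 1.67e-10). Its relative Sulf2 was at 6.83 ± 0.66 FPKM in NFIA cells, against 16 ± 1 FPKM in control cells at day 0 (-1.12 ± 0.08, adjusted p = 6.92e-08). The 17 signal transducers found had 1 higher and 3 lower at day 0 and 1 higher and 3 lower at day 7, and medians of 0 and -0.06, so that at day 7 both counts lie below the shares of all genes. The 1 higher gene at day 7, the adaptor Shc1, was at 161 ± 8.96 FPKM in NFIA cells, against 51.7 ± 1.60 FPKM in control cells (1.62 ± 0.08, adjusted p = 2.82e-10).

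Feedback inhibitors and targets of FGF signalling, a list of 14 genes, were all tested. At day 0, 5 were higher and 3 lower in NFIA cells, and the largest difference was in Spry1, a Sprouty inhibitor of receptor signalling, at 8.70 ± 0.40 FPKM in NFIA cells, against 1.82 ± 0.28 FPKM in control cells (1.79 ± 0.11, adjusted p = 8.02e-09). At day 7, 1 was higher and 11 lower, beside 26.1% and 29.4% of all genes, with a median of -0.77 against -0.03 over all genes. The lower genes on both days include Il17rd, at 0.35 ± 0.05 FPKM in NFIA cells, against 2.78 ± 0.19 FPKM in control cells at day 7. Il17rd passed the filter only through control cells, so that it is lower in NFIA cells follows from the filter. The ETS factors Etv4 (-1.94 ± 0.17, adjusted p = 1.46e-07) and Etv5 (-1.48 ± 0.18, adjusted p = 3.49e-06) and the phosphatase gene Dusp6 (-0.99 ± 0.12, adjusted p = 5.13e-06) were lower. Spry4 was the gene that was higher (0.92 ± 0.09, adjusted p = 5.06e-07). These genes also answer to other growth factors, so their levels are no measure of FGF signalling alone.

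The feedback list was also followed under forskolin in both kinds of cell. In NFIA cells 2 of 14 rose and 0 fell, beside 15.7% of all genes higher and 16.9% lower, so the share that rose is near the background. In control cells 0 rose and 6 fell, beside 1.92% of all genes higher and 2.06% lower. Egr1, an immediate early gene, was at 94.8 ± 7.91 FPKM in NFIA cells with forskolin, against 18.4 ± 1.16 FPKM untreated (2.30 ± 0.08, adjusted p = 5.15e-11). In control cells it was at 9.52 ± 0.44 FPKM with forskolin, against 28.7 ± 1.47 FPKM untreated (-1.5 ± 0.08, adjusted p = 1.51e-07). Dusp6 was at 10.5 ± 0.90 FPKM in NFIA cells with forskolin, against 5.55 ± 1.30 FPKM untreated (0.82 ± 0.12, adjusted p = 0.000115), and at 5.37 ± 0.77 FPKM in control cells with forskolin, against 11.9 ± 0.64 FPKM untreated (-1.02 ± 0.12, adjusted p = 0.000157). The interaction was called for 8 of the 14, each with a positive term, beside 10.5% of all genes, with a median of 0.41 against -0.01 over all genes, and was 3.80 ± 0.12 for Egr1 (adjusted p = 3.13e-11) and 1.85 ± 0.17 for Dusp6 (adjusted p = 2.57e-06). A positive term does not mean a higher level: Etv4 (0.86 ± 0.25, adjusted p = 0.0232) was at 1.59 ± 0.36 FPKM in NFIA cells with forskolin, against 4.48 ± 0.51 FPKM in control cells with forskolin.

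**Figure D5:**
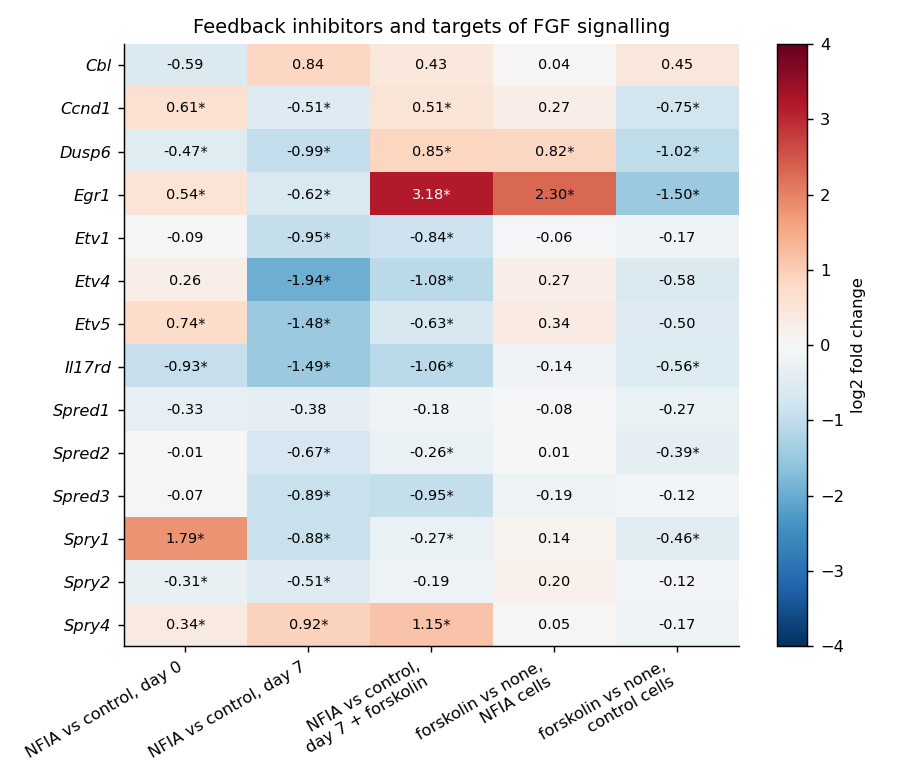
Log2 fold change on the log2(FPKM + 1) scale of 14 feedback inhibitors and targets (rows) in 5 comparisons of 3 against 3 libraries (columns); a star marks an adjusted p under 0.05. Egr1 is at 2.30 with forskolin in NFIA cells and -1.5 in control cells.

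In tissue 11 of the 14 feedback genes were tested, and 0 were higher and 1 lower, beside 3.59% of all tested genes higher and 3.55% lower. Ccnd1, the cell cycle gene cyclin D1, was at 3.96 ± 0.57 FPKM in tissue labelled NFIA-KO, against 16.3 ± 4.22 FPKM in wild-type tissue (-1.78 ± 0.20, adjusted p = 0.0137). Calls in tissue rest on few libraries: 973 genes were called in all, 19 without wild-type replicate 1 and 53 without wild-type replicate 3. Dusp6 was at 12.9 ± 3.52 FPKM in tissue labelled NFIA-KO, against 16 ± 5.66 FPKM in wild-type tissue (adjusted p = 0.62). Heparan sulfate enzymes (0 of 11) and signal transducers (0 of 17) had no call in tissue with limma. Beside the shares of all tested genes given above, these counts and that of the feedback genes are near the background.

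The genes whose log2 level followed each member most closely over the 18 C2C12 libraries were taken by Pearson's r, as a description only, since libraries of a group share their condition. Fgf21 was most like Pgk1, a glycolytic enzyme (r = 0.989), followed by the processed pseudogenes Pgk1-rs7 and Gm5537 (both r = 0.985); Pgk1-rs7 is a copy of Pgk1 and may share its reads. Fgfr2 was most like G6pdx (r = 0.983), Ace (r = 0.983) and Ptplad1 (r = 0.981). Fgfr1 was most like Cebpd (r = 0.946), Rabggtb (r = 0.944) and Mcam (r = 0.927). Fgf10 was most like Hspa5, an endoplasmic reticulum chaperone (r = 0.954), Ereg, an EGF family ligand (r = 0.947), and Nmnat2 (r = 0.927). Fgf7 was most like Prr9 (r = 0.955), Lhfp (r = 0.949) and Cd109 (r = 0.934), and Fgf2 most like Pter (r = 0.915), Sorbs2 (r = 0.906) and Cdhr1 (r = 0.9). The 2 weakest were Fgfr3, with Igf1 (r = 0.863), Ndrg1 (r = 0.818) and Fst (r = 0.812), and Fgfr4, with Upp2 (r = 0.797), Il18 (r = 0.78) and Ppp4r1l-ps (r = 0.777), where 1 library weighs heavily.

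By the loci in the tables (mm9), Fgf1 lies at chr18:38761188-39549079, Fgf2 at chr3:37206671-37478018, Fgf7 at chr2:125656040-125977740, Fgf10 at chr13:119458598-119580922 and Fgf21 at chr7:52869277-52870860. Fgfr1 lies at chr8:26624126-26686186, Fgfr2 at chr7:137305965-140316037, Fgfr3 at chr5:34064373-34079716, Fgfr4 at chr13:55254001-55270120 and Klb at chr5:65739625-65775242. The tables give 1 locus to several genes where these overlap, so that of Fgfr2 is shared with 41 other genes and those of Fgf1 and Fgf2 with 8 others each. In GENCODE M21 exons of Fgf2 overlap Nudt6, its antisense gene, and those of Fgf10, Fgfr1 and Fgfr3 each overlap a gene on the opposite strand. Exons of Fgfr2 overlap Ctbp2 and those of Fgf2 overlap Gm43439 on the same strand, so their reads could be split between the genes whatever the use of strand, and the Fgfr2 and Fgf2 values are uncertain to that extent. The sources used here do not state whether counting used strand, and without it reads of the opposite-strand pairs cannot be told apart.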

How the data were processed

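RNA was isolated using Trizol followed by RNeasy, and polyadenylated RNA became TruSeq Stranded mRNA libraries, per the labels. The authors deposited FPKM tables. The submitters' processing notes name TopHat, Cufflinks and the build mm9, while versions, annotation and use of strand are not stated in the sources used here. Each of the 24 deposited FPKM tables lists 37305 rows; 264 rows were summed into another of the same symbol at an overlapping locus (Fgfr1 is the sum of 2), which left 37041 genes. No FPKM table gives read totals, so depth is unknown.

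Groups follow the sample titles. Values were taken as log2(FPKM + 1) and tested with limma 3.58.1 (R 4.3.3, variance trend), in a fit of 18 C2C12 libraries and another of 6 tissue libraries, for genes with at least 1 FPKM in 3 libraries of the fit. Calls are at an adjusted p under 0.05 (Benjamini-Hochberg over all tested genes of a comparison). The fit was run on simulated data with independent noise in every library. That run does not cover deviations that libraries share or a value that stands far apart. The members and gene lists were chosen with earlier results of these data known. All 10 members are named; from each pathway list the rule names per comparison up to 4 called genes with the largest change and the most abundant gene, of which part is printed; the genes most like a member had to average 5 FPKM or more in a C2C12 group. Genes named outside this rule (Spry4 at day 7) were chosen after their values were seen.

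Replicate numbers come from the titles (an unnumbered C2C12 library is replicate 1). Same-numbered libraries deviated together, with every correlation over 0.1, in 5 comparisons: NFIA against control at day 0 and at day 7 with forskolin, both courses from day 0 to 7, and forskolin in NFIA cells. The alternatives tried were a replicate block, the date in the column headers as a term, a fit of only the groups compared, each library left out, quantile normalization, rescaling by the median of ratios, a pseudocount of 0.1, and all genes without a filter. Libraries of the later date alone, and leaving control day 7 replicate 3 out of every C2C12 fit, were chosen after seeing the data. What these dates record is not stated; all tissue libraries bear an earlier one.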

Additional observations from a re-analysis of the deposited data

Results flagged for a closer look

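The effect of NFIA differed between day 7 and day 0 by the interaction term of limma (log2 scale, adjusted p over all tested genes) for 6 members. The term was 3.28 ± 0.29 for Fgfr2 (adjusted p = 2e-07), -3.26 ± 0.32 for Fgf21 (adjusted p = 7.84e-07), -3.04 ± 0.34 for Fgf2 (adjusted p = 2.69e-06), -2.92 ± 0.17 for Fgf7 (adjusted p = 1.69e-09), -1.22 ± 0.14 for Fgf10 (adjusted p = 3.39e-06) and -0.72 ± 0.19 for Fgfr3 (adjusted p = 0.00508).

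The response to forskolin differed between NFIA and control cells at day 7 for 3 members. The term was 2.66 ± 0.32 for Fgf21 (adjusted p = 3.32e-05), 1.28 ± 0.14 for Fgf10 (adjusted p = 1e-05) and 0.64 ± 0.17 for Fgf7 (adjusted p = 0.0128). The Fgfr4 value of 143.97 FPKM in control day 7 replicate 3 was not tested as an outlier.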

How the results depend on the processing

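With a replicate block, calls over all genes went to 5159 from 3036 for NFIA against control at day 0. They went to 1260 from 570 for forskolin in control cells and to 5041 from 2890 for the interaction with forskolin. No label says that the replicate numbers pair libraries. Replicate 1 bears the earlier date in each C2C12 group, so the block cannot be fully told apart from the date. The block moved Fgfr2 at day 0 and Fgfr1 from day 0 to 7 in control cells past the threshold and changed no other member's call. With the date in the column headers as a term the same 3 counts were 5303, 1343 and 5149, and the later date alone gave 4556 for the interaction. With only the groups compared, 1872 genes were called at day 0 and 239 with forskolin in control cells, where 1 member was left of 3. Without an expression filter 40 genes were called in tissue, against 973 with it. The causes were not tested. No member's call reversed under any of these alternatives.

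Leaving out each library in turn gave 1 to 2 members called with forskolin in control cells and 3 to 7 for NFIA against control with forskolin, where the lowest counts came without control replicate 1 or NFIA replicate 3. It gave 361 to 447 genes called with forskolin in control cells and 19 to 1361 in tissue, where the count was 19 without wild-type replicate 1, 53 without wild-type replicate 3, and 148, 109 and 541 without NFIA-KO replicates 1, 2 and 3. Fgf2 in NFIA against control cells at day 7 missed the threshold with a pseudocount of 0.1 (adjusted p = 0.052), no expression filter (0.06), quantile normalization (0.056) and median-of-ratios rescaling (0.066), and without control replicate 1 (0.13) or 2 (0.061) or NFIA replicate 2 (0.12) or 3 (0.081).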
